A study of Papio anubis with 24 samples.

Results

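Unplaced scaffolds are assembled stretches of the baboon genome that have not been assigned to a chromosome, and their methylated DNA peaks are described here. The members were all peaks whose sequence name begins with chrUn in 2 MeDIP-seq peak lists of olive baboon (Papio anubis) pluripotent cells. They numbered 14158 of 211395 peaks, of which 10915 of 166961 were in the list of embryonic stem cells (ESC) and 3243 of 44434 in the list of induced pluripotent stem cells (iPSC). The peaks lay on 5621 scaffolds, and the comparison throughout is with the 20 numbered autosomes of the same list, which held 151630 ESC and 40590 iPSC peaks.

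In MeDIP-seq, fragmented DNA is precipitated with an antibody against 5-methylcytosine and sequenced, and a peak marks a stretch where precipitated fragments pile up above the local background. Methylation of cytosine in CpG dinucleotides is the main DNA methylation mark of mammalian genomes and is dense over most repeated DNA. Sequences that an assembly leaves unplaced are often repeats, satellites or near-identical duplications, where reads from several copies in the cell can fall on 1 assembled copy, so coverage there can depend on copy number as well as on methylation.

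The study set embryo-derived cells, lines ESC_B4 and ESC_B15, beside reprogrammed cells, lines iPSC_160-2 and iPSC_M14939#3, all of them grown on feeder cells. Each cell type had 6 MeDIP and 6 input libraries, 3 of each kind per line, which makes 24 libraries in 4 groups. In 5 of the 6 libraries titled iPSC_M14939#3 the line is numbered differently in the cell line label, so the labels do not settle whether they are 1 line.

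The sources used here do not say how the libraries of a cell type were pooled. With 1 list per cell type there was no replicate error and no test between the cell types. Differences between the lists can come from the lines, the depth or the peak calling as well as from the cell type, and these cannot be told apart. Intervals beside shares are 95% Clopper-Pearson intervals (exact binomial), which express counting error alone and are too narrow where neighbouring peaks depend on each other. The spread between the 20 autosomes served as the yardstick for how much a value varies between sequences. Read depth was not listed, but the fragments piled up at each summit and the local background behind them were recovered from the deposited fold and p-value. The iPSC pileups came out whole only after division by a common factor of 0.690, so they are scaled fragments and not counts. The ESC pileups were whole without such a factor. Backgrounds were often not whole in either list, such as 44.7 fragments at the median of unplaced ESC peaks. They are thus not counts either, and the sources used here do not say which libraries they came from. The background is also given as a multiple of the lowest background of its list, which stands for the genome-wide mean (11.99 fragments for ESC and 10.23 for iPSC). Scaffold positions are as the lists give them, counted from 1. The sources used here do not name the build, and the only gene table at hand, for Panubis1.0, names none of these scaffolds, so no gene was assigned to any peak.

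Unplaced scaffolds made up 6.54% of ESC peaks (95% interval 6.42 to 6.66) and 7.30% of iPSC peaks (7.06 to 7.54). They covered 2837 kb and 1057 kb of sequence, which was 6.85% and 7.46% of the length of all peaks in each list. For every 100 ESC peaks on these scaffolds there were 29.7 iPSC peaks. The same ratio was 26.8 over the autosomes together and ran from 19.6 on chromosome 2 to 36.2 on chromosome 19, with 2 autosomes above the unplaced scaffolds, so the ratio lay within the spread between chromosomes. The order of the shares turned when the ESC list was cut. With only the 44434 ESC peaks of highest −log10 q, 3888 unplaced peaks were left, or 8.75% of that list, and the share was then higher in ESC than in iPSC. This cut shortened the list and selected by −log10 q at once, and unplaced ESC peaks had the higher −log10 q (median 8.15 against 7.23 on the autosomes), so the part of each cannot be told apart.

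Most scaffolds carried 1 peak. With the lists at full length, 166961 ESC and 44434 iPSC peaks, most carried peaks in the ESC list only. Of the 5621 scaffolds, 3921 (69.8%) had ESC peaks alone, 1329 (23.6%) had peaks in both lists and 371 (6.60%) had iPSC peaks alone. The scaffolds with both held 52.3% of the unplaced ESC peaks but 87.0% of the unplaced iPSC peaks. In the ESC list 73.6% of the 5250 scaffolds with a peak had exactly 1 (72.3 to 74.8), and in the iPSC list 74.9% of 1700 (72.7 to 76.9). The mean was 2.08 ESC peaks and 1.91 iPSC peaks per scaffold, and the most on any scaffold was 103 and 57. The 10 fullest scaffolds held 7.03% of the unplaced ESC peaks and 10.9% of the unplaced iPSC peaks, while 622 and 253 scaffolds were needed to reach 50%. In both lists the peaks were thus spread thinly over many scaffolds, with a long tail of fuller ones. The classes changed when the ESC list was cut by −log10 q to the length of the iPSC list. Then 1615 scaffolds had ESC peaks alone, 861 had both and 839 had iPSC peaks alone, so ESC alone was no longer most.

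**Figure D1:**
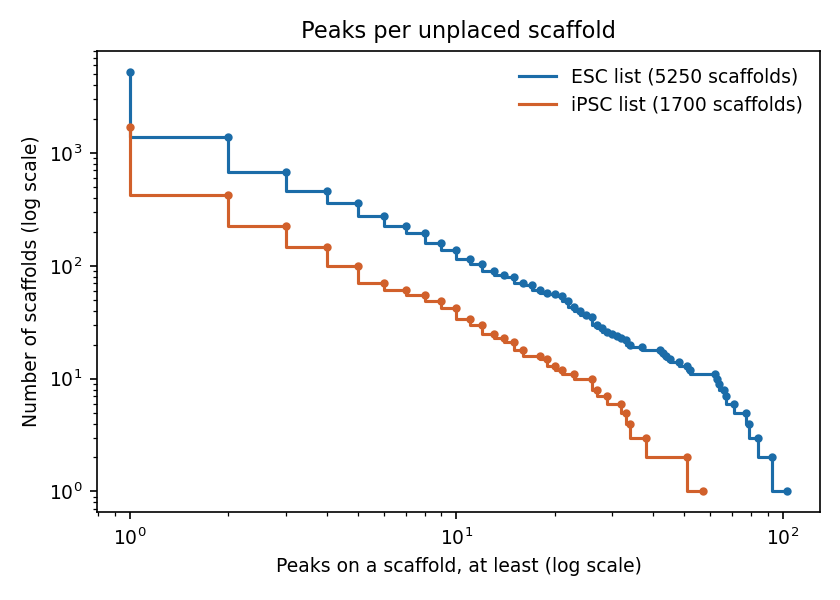
Number of unplaced scaffolds (y axis, log scale) that carry at least the number of peaks on the x axis (log scale), for the ESC list (blue, 5250 scaffolds) and the iPSC list (orange, 1700 scaffolds). Both curves fall steeply from 1 peak to 2, where 73.6% and 74.9% of scaffolds drop out, and end at 103 and 57 peaks.

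Whether a scaffold appeared in the other list went with how many peaks it carried. An iPSC peak was present on 16.7% of the scaffolds with 1 ESC peak (15.6 to 17.9), on 51.4% of those with 3 to 4 and on 71.7% of those with 5 to 9. It was present on 55 of the 56 scaffolds with 20 or more ESC peaks. Read the other way, 73.4% of the scaffolds with 1 iPSC peak also had an ESC peak (70.9 to 75.9), and this held for all 29 scaffolds with 10 to 19 iPSC peaks and all 13 with 20 or more. A scaffold with more peaks has more chances to be seen in both lists, so this gradient is a description of the lists and no measure of likeness.

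Scaffold lengths were not at hand, so the end of the last peak in either list, called the reach here, gave a lower bound that the peaks themselves partly set. The median reach was 1.014 kb over all scaffolds, 3.24 kb for scaffolds with peaks in both lists, 0.918 kb for those with ESC peaks alone and 0.883 kb for those with iPSC peaks alone. The 2760 scaffolds reaching less than 1 kb held 2628 ESC and 632 iPSC peaks. At the other end, the 127 scaffolds reaching beyond 100 kb held 2530 ESC and 831 iPSC peaks. Along these long scaffolds there were 84.1 ESC and 27.6 iPSC peaks per Mb of reach. The autosomes had 58.5 and 15.7 peaks per Mb, from 40.6 and 7.96 on chromosome 2 to 142.9 and 51.7 on chromosome 19, so the density of the long scaffolds lay inside the range of the autosomes.

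The fullest scaffolds were long ones and were largely the same in both lists, with 8 scaffolds among the 10 fullest of each. The scaffold chrUn_NW_018770587v1 led the ESC list with 103 peaks and had 26 iPSC peaks over a reach of 656 kb. The scaffold with the most peaks over both lists was chrUn_NW_018792178v1, with 93 ESC and 51 iPSC peaks over 377 kb. The iPSC list was led by chrUn_NW_018767977v1, where 57 iPSC peaks stood beside 84 ESC peaks over 181 kb. This last one was the densest of the 12 scaffolds named by count, with 46.3 ESC and 31.4 iPSC peaks per 100 kb, and 43 of its ESC peaks (51.2%) overlapped an iPSC peak. The sparsest was chrUn_NW_018778491v1, whose 71 ESC and 14 iPSC peaks were spread over 2176 kb, or 3.26 ESC peaks per 100 kb, and 12.7% of those ESC peaks overlapped an iPSC peak. Having the most peaks therefore did not mean having the highest density.

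The other scaffolds among the fullest fell between these. On chrUn_NW_018823895v1 there were 79 ESC and 32 iPSC peaks, and on chrUn_NW_018762862v1 there were 77 and 16. The scaffolds chrUn_NW_018766583v1 and chrUn_NW_018761840v1 carried 67 and 66 ESC peaks with 29 and 26 iPSC peaks. On chrUn_NW_018788007v1 the counts were 64 and 33, and on chrUn_NW_018797644v1 they were 63 and 38. Among the 10 fullest of the iPSC list alone were chrUn_NW_018772880v1, with 62 ESC and 34 iPSC peaks, and chrUn_NW_018783519v1, with 52 and 27. The number of iPSC peaks per 100 ESC peaks ran from 19.7 to 67.9 over the 12 scaffolds, and 9 of them exceeded the highest autosome at 36.2. The scaffolds chrUn_NW_018772880v1 and chrUn_NW_018783519v1, at 54.8 and 51.9, entered by their iPSC count alone, which favours a high ratio. A whole chromosome is also a coarse yardstick. Autosomal windows of 200 kb with 20 or more ESC peaks had an upper quartile of 41.2, so values above 36.2 were common at that scale.

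The ratio varied more between scaffolds than between chromosomes, as it did between autosomal windows of 200 kb. Over the 56 scaffolds with 20 or more ESC peaks the median was 36.0 iPSC peaks per 100 ESC peaks, with quartiles of 22.5 and 50.4. Over 2153 autosomal windows of 200 kb with 20 or more ESC peaks the median was 29.3, with quartiles of 18.5 and 41.2. The 2 distributions thus overlapped over most of their range. The window size was near the median reach of the 56 scaffolds, 192 kb. Single scaffolds differed from it, such as chrUn_NW_018787313v1 at 49.6 kb and chrUn_NW_018778491v1 at 2176 kb. The limit of 20 ESC peaks also kept only windows dense in ESC peaks. At the low end were chrUn_NW_018792825v1 with 24 ESC peaks and no iPSC peak, chrUn_NW_018764138v1 with 48 and 4, and chrUn_NW_018824171v1 with 22 and 2. At the high end were chrUn_NW_018792466v1 with 22 and 19, chrUn_NW_018787313v1 with 22 and 18, and chrUn_NW_018822098v1 with 23 and 16. These 6 scaffolds were singled out for their values.

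**Figure D2:**
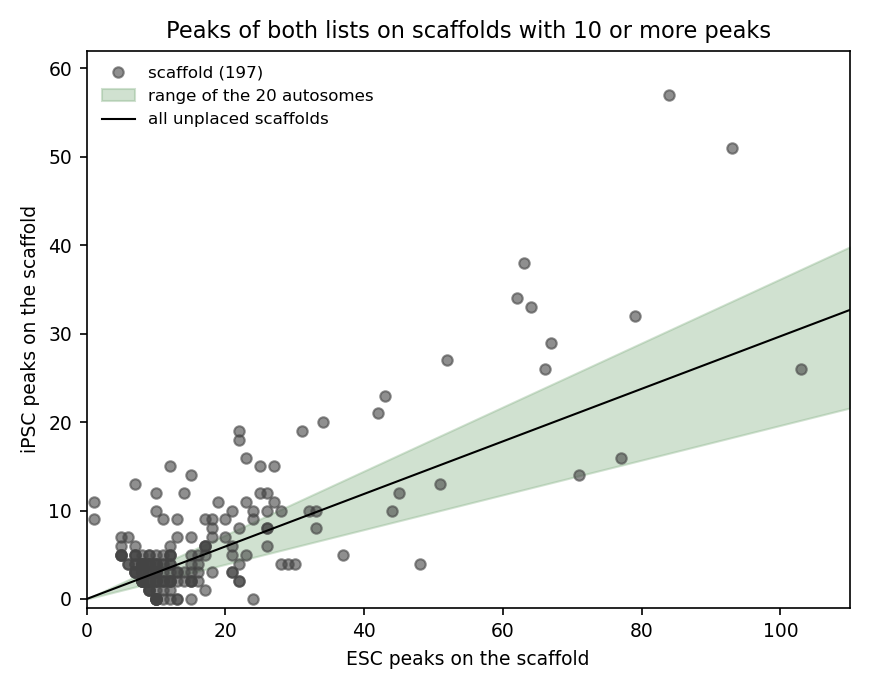
ESC peaks (x axis) against iPSC peaks (y axis) on each of the 197 unplaced scaffolds with 10 or more peaks over both lists. The line is the ratio of all unplaced scaffolds (29.7 iPSC per 100 ESC peaks) and the band spans the autosomes (19.6 to 36.2). Points lie on both sides of the band, with chrUn_NW_018767977v1 (84 and 57) far above it and the scaffold with 48 ESC and 4 iPSC peaks far below it.

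Scaffolds with more iPSC than ESC peaks were few at full list length, where the iPSC list had 44434 peaks and the ESC list 166961. There were 433 among the 5621 scaffolds, of which 371 had no ESC peak and 62 had at least 1. The shorter iPSC list alone makes such scaffolds fewer. With the ESC list cut by −log10 q to the length of the iPSC list, the 371 became 839, and the 433 were not recounted. Of the 197 scaffolds with 10 or more peaks over both lists, 8 were of this kind. The most one-sided, chosen after their values were seen, were chrUn_NW_018818417v1 with 11 iPSC peaks and 1 ESC peak over a reach of 17.6 kb, and chrUn_NW_018821606v1 with 9 and 1 over 17.2 kb. On chrUn_NW_018818417v1 none of the iPSC peaks overlapped the ESC peak. Their median width was 756 bp, against 251 bp for all unplaced iPSC peaks, and their median fold was 3.11.

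Most scaffolds seen in 1 list only carried 1 peak, and a handful carried many. Of the 3921 scaffolds with ESC peaks alone, 3216 (82.0%) had 1 peak, 76 had 5 or more and 13 had 10 or more. Of the 371 with iPSC peaks alone, 338 (91.1%) had 1 peak, 3 had 5 or more and none had 10. Their iPSC peaks had a median fold of 2.65 and a median background of 23.6 fragments, against 2.48 and 30.0 for iPSC peaks on scaffolds with both. The ESC peaks differed less by scaffold class, with a median fold of 2.10 and a background of 45.6 fragments where ESC stood alone and 2.12 and 43.8 where both lists had peaks. These ESC peaks were narrower, at a median of 211 bp against 231 bp.

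The 5 fullest scaffolds with ESC peaks alone were of unlike kinds. On chrUn_NW_018792825v1, 24 ESC peaks were spread over a reach of 61.7 kb at folds of 1.18 to 2.50, with a median background 15.7 times the lowest of the list. On chrUn_NW_018822681v1, 12 peaks lay over 21.6 kb at folds of 1.24 to 1.78, with a background 11.4 times the lowest. Both were thus stretches of deep median background with low median folds, at 1.40 and 1.42. Single peaks varied, and the peak of fold 2.50 on chrUn_NW_018792825v1 stood on a background of 40.3 fragments. The other three had lower backgrounds and more distant peaks. These were chrUn_NW_018779020v1 with 15 peaks over 221 kb, chrUn_NW_018763972v1 with 13 over 244 kb and chrUn_NW_018781570v1 with 13 over 118 kb, at median folds of 2.32, 2.31 and 2.31 and backgrounds of 1.42 to 3.58 times the lowest. The highest of these, on chrUn_NW_018779020v1, was still above the 3.36 times of chromosome 19, the highest autosome.

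The 5 fullest scaffolds with iPSC peaks alone had 3 to 8 peaks each, all within the first 24.6 kb. The scaffold chrUn_NW_018812263v1 had 8 peaks over 24.6 kb, and chrUn_NW_018780745v1 had 5 over 5.37 kb. There were also 5 on chrUn_NW_018809550v1, 4 on chrUn_NW_018823072v1 and 3 on chrUn_NW_018818070v1. The peaks of chrUn_NW_018780745v1 were 517 to 728 bp wide with folds of 3.00 to 6.88, above the median of unplaced iPSC peaks in both measures for every peak. Their median background was 1.86 times the lowest of the list, below the 2.84 times of all unplaced iPSC peaks. The 5 peaks of chrUn_NW_018809550v1 were narrower and weaker, at 207 to 309 bp and folds of 2.14 to 2.82, on a background 4.22 times the lowest. No ESC peak was called on any of these 5 scaffolds, which says that none passed the threshold and not that methylated fragments were absent there.

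The 8 iPSC peaks of chrUn_NW_018812263v1 were evenly spaced. Their summits lay at positions 1890, 5701, 8396, 11695, 15031, 18165, 21421 and 24392, which puts neighbours 2695 to 3811 bp apart, with a median of 3256 bp. In the same order the folds were 3.05, 4.53, 5.21, 2.19, 2.03, 2.68, 3.05 and 3.94, and the recovered pileups ran from 52.5 to 109 fragments over backgrounds of 14 to 40. The standard deviation of the distances was 0.107 of their mean. This was the lowest of the 100 scaffolds with 5 or more iPSC peaks, whose median was 0.936 and whose next lowest was 0.265, on chrUn_NW_018821606v1. Of 40450 runs of 8 neighbouring iPSC peaks on the autosomes, 1 was as regular, with a value of 0.052. In the ESC list the most regular of 360 scaffolds was chrUn_NW_018789305v1, with 7 peaks and a value of 0.216. Of 151510 autosomal runs of 7 ESC peaks, 141 were as regular as that. The spacing on chrUn_NW_018812263v1 was noticed in the data and then measured in them, so the count of runs is a description and no test.

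**Figure D3:**
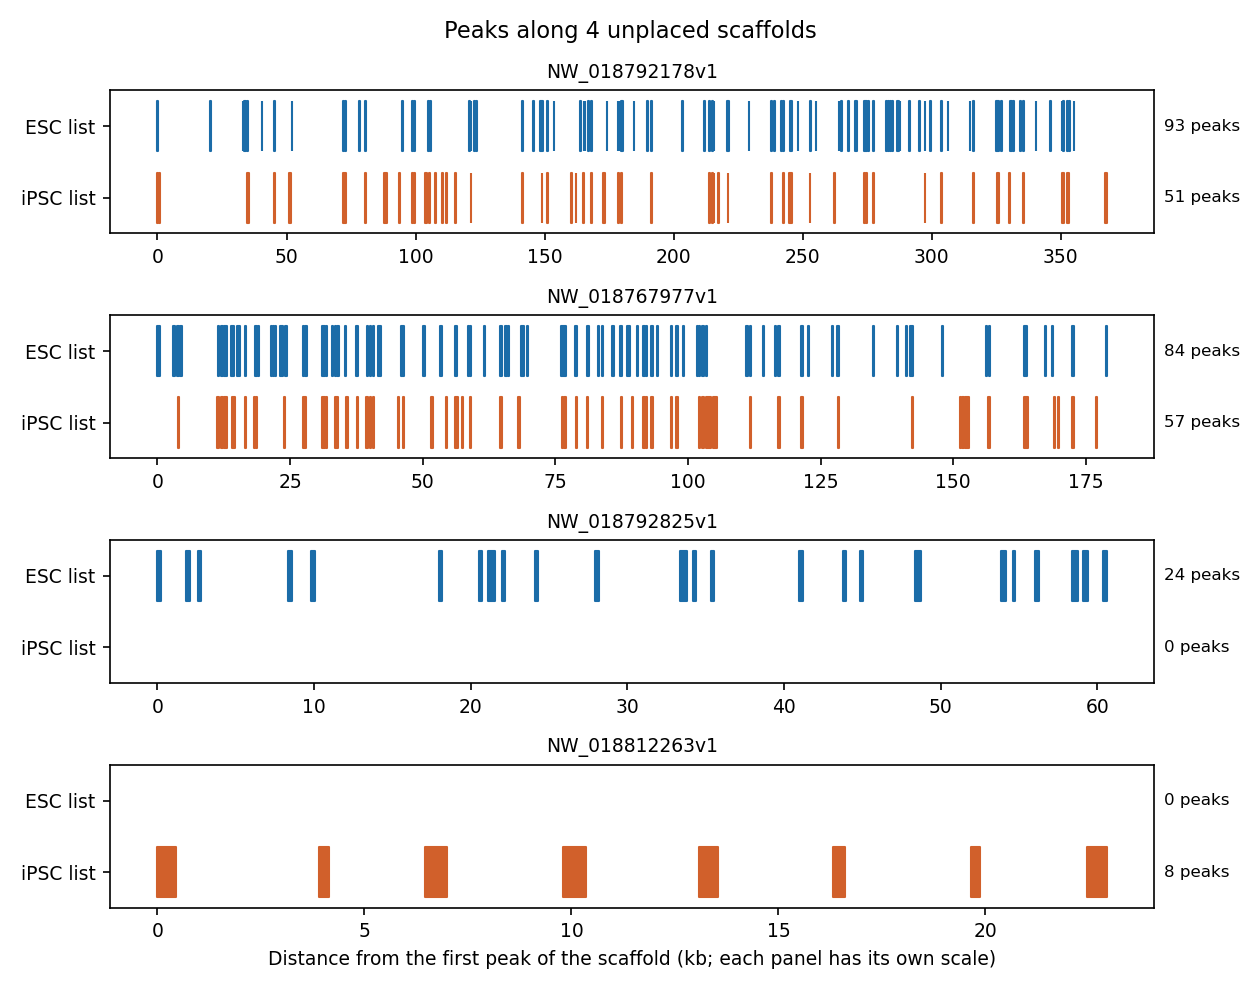
Peaks of the ESC list (blue) and the iPSC list (orange) along 4 unplaced scaffolds, as distance from the first peak in kb, each panel on its own scale. From the top are the scaffold with the most peaks over both lists (93 ESC, 51 iPSC), the scaffold with the most iPSC peaks (84 and 57), the fullest scaffold with ESC peaks alone (24) and the fullest with iPSC peaks alone (8), where the peaks are evenly spaced.

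Peaks on unplaced scaffolds were slightly wider than autosomal peaks and lay much closer together. The median width was 221 bp in the ESC list against 215 bp on the autosomes (range 211 to 230), and 251 bp in the iPSC list against 242 bp (range 228 to 254). In each list chromosome 19 alone had wider peaks. The share of peaks of at least 1 kb was 0.147% in the ESC list (16 peaks, 0.0838 to 0.238), beside 0.117% over the whole list, and 1.67% in the iPSC list (54 peaks, 1.25 to 2.17), beside 2.10%. Both shares lay within the range of the autosomes. With the ESC list at the length of the iPSC list, the median ESC width was the same on scaffolds and autosomes.

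The gap between neighbouring peaks on the same sequence was shorter than on any of the 20 autosomes. In the ESC list the median gap was 2338 bp, where the autosomes together had 7217.5 bp and the shortest autosomal median was 3242 bp on chromosome 19. In the iPSC list it was 3282 bp, where the autosomes had 16602 bp and the shortest was 8113 bp. Gaps below 1 kb made up 31.2% of ESC and 25.4% of iPSC gaps, against 13.2% and 9.01% on the autosomes and at most 22.7% and 14.5% on any of them. A gap cannot be longer than its scaffold, so short scaffolds shorten the gaps. On scaffolds reaching beyond 100 kb the medians were 4019 bp (ESC) and 5779 bp (iPSC), still below the autosomes together. The ESC value was then above that of chromosome 19, while the iPSC value remained below every autosome.

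The coverage behind the peaks was deeper on unplaced scaffolds, and the folds were lower. In the ESC list the median background was 44.7 fragments, above all 20 autosomes (24.2 to 40.3), and the median pileup at the summit was 98.0 fragments, also above all of them (60 to 88). The fold is the ratio of the pileup to that background, with 1 added to both, and its ESC median was 2.11 against 2.28 on the autosomes, where only chromosome 19 was as low. In the iPSC list the median background was 29.0 fragments against 25.1, level with chromosome 19 and above the other 19. The iPSC pileup was 77.3 fragments, above all 20 autosomes (60.7 to 73.9), and the median fold was 2.50 against 2.59, with 2 autosomes lower. By the authors' deposited lists the median −log10 q was 8.15 in ESC and 9.19 in iPSC, above every autosome of the same list (at most 7.40 and 8.81). Lower folds thus went with higher −log10 q on these scaffolds.

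**Figure D4:**
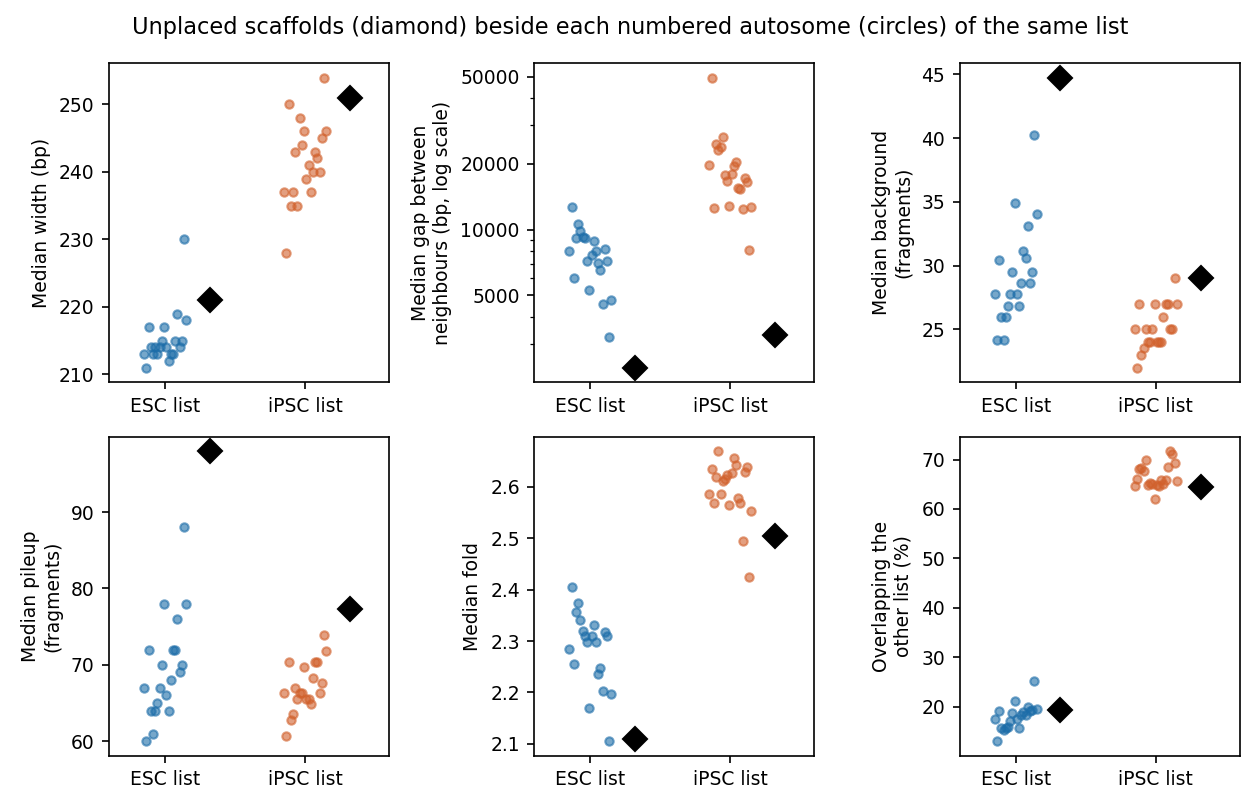
Width, gap, background, pileup, fold and overlap of the peaks on unplaced scaffolds pooled (black diamond) and on each of the 20 numbered autosomes (circles), for the ESC list (blue) and the iPSC list (orange). Values are medians (the gap on a log scale) or, for overlap, a share in percent. Gaps lie below and pileups above all autosomes in both lists, while the background does so in the ESC list only.

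The background varied widely between scaffolds. Of the 360 scaffolds with 5 or more ESC peaks, 183 (50.8%) had a median background above that of the highest autosome, which was 3.36 times the lowest of the list. The same held for 24.9% of 30318 runs of 5 neighbouring ESC peaks on the autosomes. The range over these scaffolds was 1 to 17.9 times, with the highest value on chrUn_NW_018781759v1, where 6 ESC peaks had a median fold of 1.46 and no iPSC peak was called. For the iPSC list 35 of 100 scaffolds exceeded the highest autosome at 2.84 times, beside 29.4% of 8110 autosomal runs of 5 peaks, and the range was 1.08 to 9.78. Its highest value was on chrUn_NW_018791076v1, with 5 iPSC peaks and, at 7.09 times in the ESC list, 9 ESC peaks. Background fell with reach in the ESC list, from 4.25 and 4.63 times the lowest on scaffolds reaching less than 1 kb and 1 to 10 kb to 3.58 and 2.91 times on those of 10 to 100 kb and beyond. The autosomes together had 2.39 times.

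The very deepest pileups of both lists were mostly on unplaced scaffolds. Of the 100 ESC peaks with the highest pileup, 84 were on 72 unplaced scaffolds (84.0%, 75.3 to 90.6), and of the 100 such iPSC peaks 78 were on 74 scaffolds (78.0%, 68.6 to 85.7). Among the 1000 deepest peaks the shares were 54.3% in ESC (51.2 to 57.4) and 32.2% in iPSC (29.3 to 35.2). Those 84 ESC peaks had a median pileup of 339 fragments over a background of 226 and a median fold of 1.51. Among them 14 (16.7%) overlapped an iPSC peak, near the 19.4% of all unplaced ESC peaks. Of the 78 iPSC peaks, 64 (82.1%) overlapped an ESC peak, above the 64.5% of all unplaced iPSC peaks. These 78 had a median background of 109 fragments, and iPSC overlap rose with background. Above 70 fragments it was 75.8% on scaffolds (70.1 to 80.8) and 91.2% of 125 autosomal iPSC peaks (84.8 to 95.5). Of the 100 peaks of highest fold, 8 in the ESC list and 25 in the iPSC list were on unplaced scaffolds, the latter well above their 7.30% share of the list (25%, 16.9 to 34.7). The 100 widest peaks of each list held 8 from unplaced scaffolds, close to their share.

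Overlap with the other list was near that of the autosomes. An overlap of at least 1 bp was found for 2115 unplaced ESC peaks, or 19.4% (18.6 to 20.1), beside 17.9% of the whole ESC list and 18.1% of its autosomal peaks (13.1 to 25.3 over the autosomes). It was found for 2093 unplaced iPSC peaks, or 64.5% (62.9 to 66.2), beside 66.3% of the whole iPSC list and 66.5% of its autosomal peaks (61.96 to 71.7). Both values were inside the range of the autosomes. Of the 20 autosomes, 5 were above the ESC value and 19 above the iPSC value, which only chromosome 10 fell below. With the ESC list at the length of the iPSC list the ESC share fell below that of the autosomes and the iPSC share rose above it. The overlap rose with reach in the ESC list, from 14.95% on scaffolds reaching less than 1 kb to 22.7% on those beyond 100 kb, and went from 62.3% to 67.7% in the iPSC list with intervals that overlapped.

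At peaks of high background the overlap was lower on unplaced scaffolds than on autosomes. Above 45.6 fragments the share of ESC peaks that overlapped an iPSC peak rose steeply with the background on the autosomes. On unplaced scaffolds the share stayed between 25.7% and 29.7% there, though at lower backgrounds it rose on them too. At a background above 45.6 and up to 60 fragments it was 26.9% on scaffolds (24.6 to 29.2) and 34.8% on autosomes (34.1 to 35.5). Above 60 and up to 80 fragments it was 25.7% (23.4 to 28.0) and 50.3% (49.4 to 51.3). Above 80 and up to 120 fragments it was 29.7% (27.3 to 32.2) and 73.3% (72.1 to 74.5). Above 120 fragments it was 25.7% of 1003 scaffold peaks (23.0 to 28.5) and 93.8% of 1994 autosomal peaks (92.6 to 94.8). The median background of the peaks compared was close in each of these classes, for example 150 and 146 fragments in the last.

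Below these classes the gap was small or turned. Quartiles of background were taken over each whole list, and the classes above make up the highest ESC quartile, which held 48.7% of unplaced and 23.5% of autosomal ESC peaks. In the lowest quartile 3.69% of ESC peaks overlapped on scaffolds (2.77 to 4.82) and 1.37% on autosomes (1.26 to 1.49). In the next quartile the shares were 9.28% and 6.15%, and in the one above 19.01% and 18.5%. In the highest, scaffolds reaching up to 10 kb had 19.2% (17.8 to 20.6) and those reaching further had 38.5% (36.4 to 40.6), where all autosomal peaks had 48.9%. In the iPSC list the shares from the lowest to the highest quartile were 50.6%, 62.4%, 64.8% and 73.4% on scaffolds and 54.0%, 60.8%, 69.5% and 82.0% on autosomes. The iPSC gap was thus widest at high background too, and in the second quartile the order was turned with intervals that overlapped.

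Where an unplaced peak had no partner, the other list often had no peak on the whole scaffold. Scaffolds seen in 1 list mostly carried 1 peak, 3216 of 3921 for ESC and 338 of 371 for iPSC. On a short scaffold with 1 peak these are nearly the same statement, so the shares that follow depend on scaffold size too. Of the 8800 ESC peaks without an overlap, 5211 (59.2%) were on a scaffold with no iPSC peak, and of the 1150 such iPSC peaks, 420 (36.5%) were on a scaffold with no ESC peak. The other 730 iPSC peaks lay a median of 2057 bp from the nearest ESC peak, and 32.6% of them lay within 1 kb. On the autosomes the median was 3556.5 bp and the share 19.5%. A distance cannot be longer than its scaffold, and peaks on scaffolds with no ESC peak had no distance. Short scaffolds thus shorten the distances, so the comparison does not show that unplaced iPSC peaks lay nearer to ESC peaks than autosomal ones.

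Pairs of 1 ESC and 1 iPSC peak that overlapped each other and no other peak allowed the same place to be read in both lists. There were 2042 such pairs on 1184 scaffolds and 26260 on the autosomes. The fold was higher in iPSC for 72.5% of the unplaced pairs (70.5 to 74.4) and for 76.8% of the autosomal pairs, where the chromosomes ran from 73.8 to 78.7. The median folds were 2.06 in ESC and 2.48 in iPSC on scaffolds, and 2.08 and 2.58 on autosomes. The share over all unplaced pairs was below that of any single autosome. By reach it was 68.7% on scaffolds reaching up to 10 kb (65.5 to 71.7) and 75.3% on those reaching further (72.8 to 77.8), the latter within the range of the autosomes.

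The background at these pairs differed more. Each list's background was divided by its own lowest value, and on the autosomes this multiple was higher in iPSC for 2.97% of pairs (2.76 to 3.18), from 2.18 to 4.18 over the chromosomes. On unplaced scaffolds it was higher in iPSC for 241 pairs, or 11.8% (10.4 to 13.3), above every autosome. The median log2 ratio of iPSC to ESC multiple was −0.65 on scaffolds and −0.74 on autosomes, and 15.5% of unplaced pairs lay above the 95th percentile of the autosomal pairs while 6.32% lay below the 5th. Both tails were wider on scaffolds, the upper one by more. By reach the share was 18.1% below 1 kb (14.4 to 22.3), 23.3% at 1 to 10 kb (19.6 to 27.3), 6.58% at 10 to 100 kb (4.76 to 8.82) and 2.96% beyond 100 kb (1.70 to 4.76). The longest scaffolds were thus at the level of the autosomes.

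The 241 pairs were scattered over 213 scaffolds, with at most 4 on any. The 2 scaffolds with 4 are given here for that value. On chrUn_NW_018812874v1 all 4 single pairs had the higher multiple in iPSC, with log2 ratios of 0.64 to 0.99 over a reach of 11.8 kb. On chrUn_NW_018823788v1 all 4 did too, at 0.18 to 0.53 over 5.01 kb. None of the 58 scaffolds with 5 or more single pairs had a median above 0, and their medians ran from −1.33 to −0.16. The 241 pairs were therefore not the mark of a few full scaffolds.

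**Figure D5:**
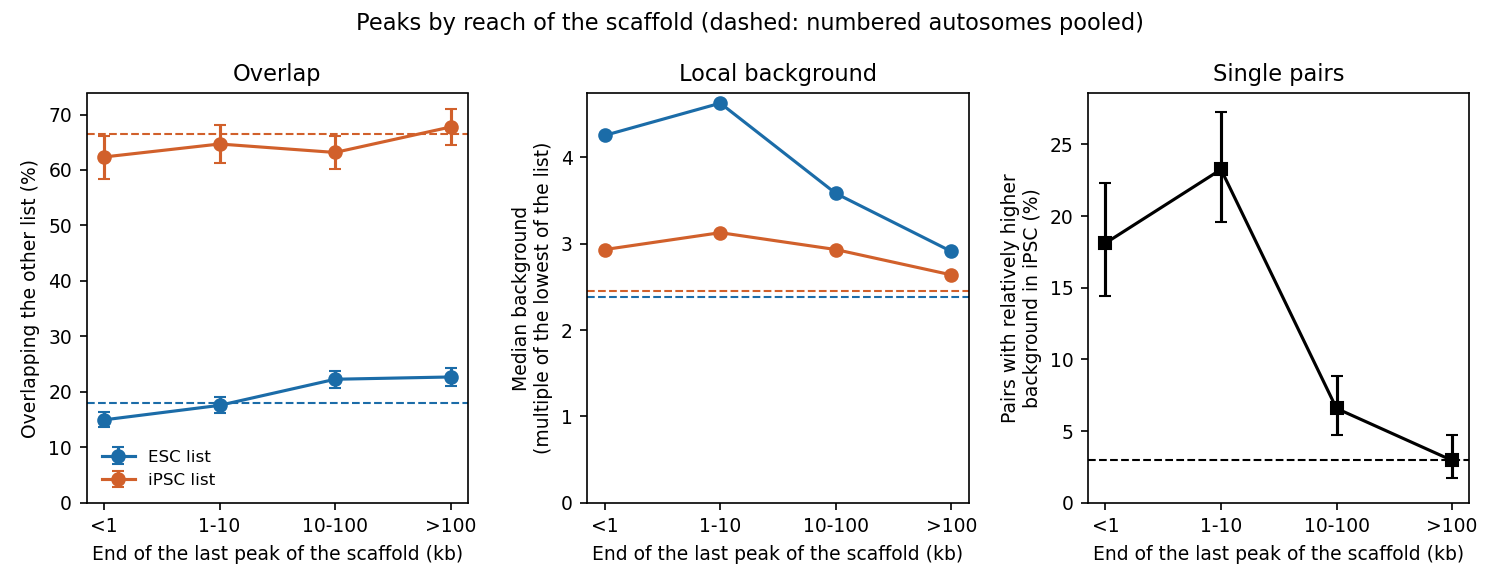
Peaks on unplaced scaffolds by the end of the scaffold's last peak (x axis, kb, 4 classes), with the autosomes together as dashed lines. The left panel shows the share overlapping the other list, the middle panel the median background as a multiple of the lowest of its list, and the right panel the share of single pairs with the higher multiple in iPSC (11.8% over all scaffolds). Bars are exact 95% intervals, and beyond 100 kb the single pairs stand at 2.96%, the level of the autosomes.

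The peaks of highest fold lay on scaffolds with few peaks, at most 7 in either list. Fold, score, p and q are the authors' own values. Among overlapping peaks ranked by iPSC fold, the first was an iPSC peak on chrUn_NW_018819816v1 at positions 204 to 929, with a fold of 7.52 and a −log10 q of 53.5 in the authors' deposited list. The ESC peak that overlapped it had a fold of 1.86, and these were the only peaks of the scaffold. The next were on chrUn_NW_018823208v1 at 24 to 379, with folds of 7.32 in iPSC and 1.59 in ESC, and on chrUn_NW_018774020v1 at 712 to 1007, with 7.16 and 1.79. These places were ranked by iPSC fold, so a lower ESC fold there is in part what the ranking picks.

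Of the ESC peaks without a partner, the strongest had folds of 5.62 on chrUn_NW_018818997v1 at 1156 to 1332, 5.53 on chrUn_NW_018778614v1 at 119 to 309 and 5.24 on chrUn_NW_018798782v1 at 50304 to 50677. No iPSC peak was called on any of these 3 scaffolds. Of the iPSC peaks without a partner the strongest had higher folds. The first was 7.44 on chrUn_NW_018811524v1 at 33609 to 33932, a scaffold with 7 ESC and 3 iPSC peaks. The next were the peak at 2411 to 3005 on chrUn_NW_018780745v1, described above, with 6.88, and that at 976 to 1268 on chrUn_NW_018796544v1, with 6.79.

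The widest peaks reached several kb. In the ESC list they were 3262 bp on chrUn_NW_018777574v1 at 496 to 3757, 2829 bp on chrUn_NW_018772880v1 at 7897 to 10725 and 1339 bp on chrUn_NW_018808418v1 at 11191 to 12529. In the iPSC list they were 3427 bp on chrUn_NW_018766089v1 at 8800 to 12226, 2735 bp on chrUn_NW_018772880v1 at 8371 to 11105 and 2640 bp on chrUn_NW_018806799v1 at 30257 to 32896. The wide peaks of chrUn_NW_018772880v1 in both lists overlapped each other, with folds of 1.55 in ESC and 2.62 in iPSC. The widest ESC peak overlapped 3 separate iPSC peaks, and the widest iPSC peak overlapped no ESC peak although its scaffold held 3.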

How the data were processed

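Per the submitters' processing notes, the tools were MACS2, deepTools, SAMtools 1.10 and Picard 2.239. The sources used here give no aligner, build, peak-calling option or pooling of libraries. The deposited fold of each peak is a linear ratio of pileup to local background. Each peak's −log10 p and −log10 q, deposited beside it, refer to that same ratio, and the smallest −log10 q was 1.30 in both lists. The deposited score is the −log10 q times 10 with decimals dropped.

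Pileup and background were recovered from fold (1 added above and below the ratio) and p-value (upper Poisson tail). Pileups came out whole within 0.02 fragments, after a common factor of 0.690 for iPSC, for 100% of peaks. On 5000 simulated peaks per list at least 99.98% were recovered, which checks the inversion only. No p-value was computed.

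Overlaps of at least 1 bp were found with bedtools 2.31.1. The scripts ran under Python 3.11.15 with pandas 2.3.3, numpy 2.4.6, matplotlib 3.10.9 and scipy 1.17.1. Named by rule are the 10 fullest scaffolds of each list, the 5 fullest of each 1-list class, the 3 peaks of highest fold in each overlap class and the 3 widest of each list. Other scaffolds were named for extreme values after these were seen (ratio of the lists, background, spacing, single pairs). Members and naming rules were chosen with earlier results of these data known. Alternatives were the ESC list cut to the iPSC list's length, a minimum −log10 q of 5, merging within 200 bp, leaving out the fullest scaffold, scaffolds with at least 5 peaks and an overlap of 50% of both peaks. Scaffolds reaching beyond 10 kb, all settings for single pairs, the classes of background within the highest quartile and the autosomal runs were added after seeing the data.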

Additional observations from a re-analysis of the deposited data

How the results depend on the processing

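Ratios here are unplaced scaffolds to autosomes. Of 105 alternative values for 21 results, 69 stayed close to the reported value, 32 moved and 4 changed side. Some could not move, since the shorter ESC list leaves values of the iPSC list alone untouched, merging does not change which scaffolds carry a peak, and no interval was repeated in either list. With the ESC list reduced by −log10 q to the length of the iPSC list, which changes length and strength at once, the ratio of iPSC to ESC peaks went from 1.11 to 0.809, the overlap ratio from 1.07 to 0.881 for ESC and from 0.971 to 1.09 for iPSC. The scaffolds then numbered 861 with both lists, 1615 with ESC alone and 839 with iPSC alone, and the ESC list had 3888 unplaced peaks (8.75%), 78.5% of its scaffolds with 1 peak, and ratios of 1 for width, 0.184 for gap, 0.890 for fold and 1.53 for background. With a −log10 q of at least 5 the ESC share was 6.83%, the ESC ratios 0.299 for gap, 0.916 for fold and 1.51 for background, and the iPSC background ratio 1.11. Merging within 200 bp gave an ESC gap ratio of 0.342. Scaffolds with at least 5 peaks gave ESC ratios of 1.05 for width, 0.385 for gap, 0.932 for fold, 1.44 for background and 1.40 for overlap, and iPSC ratios of 1.07 for width, 0.227 for gap and 1.02 for overlap, the last of which changed side. Scaffolds reaching beyond 10 kb, a setting added after seeing the data, gave ESC ratios of 0.457 for gap, 0.949 for fold, 1.34 for background and 1.24 for overlap, iPSC ratios of 1.07 for width, 0.255 for gap and 1.12 for background, a ratio of iPSC to ESC peaks of 1.26, and 4.90% of single pairs with the higher background in iPSC in place of 11.8%. Leaving out the fullest scaffold and an overlap of 50% of both peaks moved none of the results they were run on. Fewer peaks or scaffolds entered several of these settings, and the cause of the changes was not tested. Single pairs were not recomputed at the shorter ESC list or after merging. No paired analysis was possible because neither list splits its values by replicate.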
